A study of Mus musculus with 6 samples.

Results

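Pth2, Hpcal4, Tmem59l and Rab3c are 4 genes listed as neuronal, measured here in whole mouse olfactory epithelium. They were taken from the 53686 gene symbols of the count table for the size of their change. Between 5x21-OR1A1 and wild-type tissue they were among the largest changes outside the receptors. All 4 symbols were found in the table, and all 4 were among the 19267 genes with enough counts to be tested. The differences that chose them are therefore given below as a description, with no test. Poly-A RNA of dissected main olfactory epithelium was sequenced from C57BL/6J mice, with 3 libraries from mice hemizygous for 5x21-OR1A1, a transgene that carries the human odorant receptor OR1A1, and 3 libraries from wild-type mice. The labels name neither the age and sex of the animals nor the cells in which the transgene is active, and they do not say that the libraries came from separate animals, so a p-value here reflects how much these libraries vary and no more. The libraries held between 27506217 and 35804712 counts.

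The olfactory epithelium renews its sensory neurons throughout life: basal progenitors divide, their daughters pass through an immature stage with growing axons, and mature neurons carry the olfactory marker protein Omp and usually 1 odorant receptor. Mature neurons signal through calcium that enters their cilia and release glutamate from vesicles at their terminals in the olfactory bulb. Pth2 encodes a secreted peptide of the parathyroid hormone family, also called tuberoinfundibular peptide, which activates the receptor encoded by Pth2r. Hpcal4 encodes a calcium-binding protein of the neuronal calcium sensor family. Tmem59l encodes a membrane-anchored protein found mainly in brain, the neuronal relative of Tmem59. Rab3c encodes a small GTPase of the Rab3 group, which sits on secretory and synaptic vesicles.

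Mature neuron markers were abundant in every library, and none of the 18 on the list was at 0. Omp stood above 99.96% of the tested genes in mean level. In a bulk tissue the cells that hold a transcript are not seen, so the 4 genes could not be placed in a cell type, and fewer cells of a type cannot be told apart from less RNA per cell. Markers of other neurons that a dissection could hold were mixed. Of 13 markers of peripheral ganglia and gonadotropin-releasing neurons, 8 had at most 10 counts in any library, among them Phox2a, Chat, Trpv1 and Pou4f1. The list still summed to between 183 and 221 CPM in 5x21-OR1A1 and between 173 and 235 CPM in wild-type libraries, most of it from the sodium channel gene Scn9a, at means of 143 and 163 CPM, and the intermediate filament gene Prph, at 40.6 and 30.7 CPM in 5x21-OR1A1 and wild-type libraries. Of 15 olfactory bulb and brain markers, Slc32a1 and Th had at most 10 counts in any library, and the other 13 were tested. Among these, Cdhr1 averaged 73.0 and 88.8 CPM, Slc1a2 37.8 and 67.7 CPM and Mbp 43.5 and 36.5 CPM in 5x21-OR1A1 and wild-type libraries. Others were low, such as Tbr1 at 0.902 and 1.03 CPM.

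Pth2, Hpcal4 and Tmem59l were lower in 5x21-OR1A1 tissue, at 35.1%, 41.9% and 42.9% of their wild-type means, and Rab3c was higher, at 201% of its wild-type mean. The groups did not overlap for any of the 4. All 4 were called in the fit over all genes, which adds no support, since they were chosen on this comparison. A gene was called at a Benjamini-Hochberg adjusted p under 0.05 in edgeR's quasi-likelihood test, a rule that 2.71% of the tested genes met, 2.20% as lower and 0.519% as higher in 5x21-OR1A1. Groups that did not overlap were seen in 23.8% of the tested genes, 12.5% with lower and 11.4% with higher values in 5x21-OR1A1. Neither share bears on genes that were chosen on this comparison. Values are CPM, counts relative to library totals scaled by TMM, a method that sets the bulk of genes equal between libraries.

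Pth2 had 8.67, 9.44 and 6.70 CPM in the 5x21-OR1A1 libraries, against 22.2, 27.05 and 21.4 CPM in the wild-type libraries. Its highest 5x21-OR1A1 library lay 12.01 CPM below its lowest wild-type library. The means were 8.27 ± 1.41 and 23.6 ± 3.03 CPM (SD, n = 3 each), a log2 fold change of -1.51 (SE 0.15). The counts behind them were 318, 275 and 182 in 5x21-OR1A1 and 700, 985 and 620 in wild-type libraries. Pth2 is a short gene on chromosome 7, at 45180995 to 45181838 on the plus strand of GRCm38, with 668 bases of merged exons, and no other annotated gene overlaps it. The bases just before its annotated start are shown because this gene fell the most of the 4. They run from the far end to the base next to the start, on the gene's strand (RefSeq, GRCm38.p6, chr7:45180745-45180994).
Pth2 upstream: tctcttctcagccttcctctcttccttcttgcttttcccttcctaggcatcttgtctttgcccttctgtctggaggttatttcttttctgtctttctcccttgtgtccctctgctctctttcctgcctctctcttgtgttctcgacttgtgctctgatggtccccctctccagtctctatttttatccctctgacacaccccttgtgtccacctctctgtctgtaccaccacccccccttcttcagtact
The stretch is rich in pyrimidines, with T at 42.4% of its 250 bases, and holds a single CpG.

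Hpcal4 had 2.07, 1.82 and 1.66 CPM in the 5x21-OR1A1 libraries, against 3.52, 5.14 and 4.57 CPM in the wild-type libraries. It was the lowest of the 4 in counts, with 76, 53 and 45 in 5x21-OR1A1 and 111, 187 and 132 in wild-type libraries. The gap between the groups was 1.45 CPM, and wild-type library 1 stood nearest to the 5x21-OR1A1 libraries. The means were 1.85 ± 0.209 and 4.41 ± 0.817 CPM (SD, n = 3 each), a log2 fold change of -1.25 (SE 0.20). Hpcal4 is a gene of 6 merged exons on the plus strand of chromosome 4 (123183227 to 123194701).

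Tmem59l had 6.90, 7.55 and 9.54 CPM in the 5x21-OR1A1 libraries, against 18.2, 18.9 and 18.8 CPM in the wild-type libraries. The wild-type libraries were close to each other, and 5x21-OR1A1 library 3 was the highest of its group. The means were 7.99 ± 1.38 and 18.6 ± 0.411 CPM (SD, n = 3 each), a log2 fold change of -1.22 (SE 0.13). Tmem59l is a gene of 8 merged exons on the minus strand of chromosome 8 (70483867 to 70487358). The bases before its annotated exons are shown on the gene's strand for comparison with Pth2 (RefSeq, GRCm38.p6, chr8:70487359-70487598). The capitals mark TGACGTCA, the cyclic AMP response element, which is its own complement on the other strand.
Tmem59l upstream: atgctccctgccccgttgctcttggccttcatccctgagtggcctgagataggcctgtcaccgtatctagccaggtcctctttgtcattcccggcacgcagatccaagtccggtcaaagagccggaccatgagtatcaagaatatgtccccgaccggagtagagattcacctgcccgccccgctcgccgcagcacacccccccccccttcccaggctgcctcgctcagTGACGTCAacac
This stretch of 240 bases holds 14 CpG and T at 20.4%, a different composition from the stretch before Pth2. The element begins 22 bases before the RefSeq start.

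Rab3c was the member that rose. It had 7.55, 7.89 and 9.47 CPM in the 5x21-OR1A1 libraries, against 5.11, 3.93 and 3.36 CPM in the wild-type libraries. The gap between the groups was 2.44 CPM, with wild-type library 1 again nearest to the other group. The means were 8.30 ± 1.02 and 4.13 ± 0.896 CPM (SD, n = 3 each), a log2 fold change of 1.004 (SE 0.19). The counts were 277, 230 and 257 in 5x21-OR1A1 and 161, 143 and 97 in wild-type libraries. Rab3c is a long gene that spans 226810 bases of chromosome 13, from 110054187 to 110280996 on the minus strand.

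**Figure D1:**
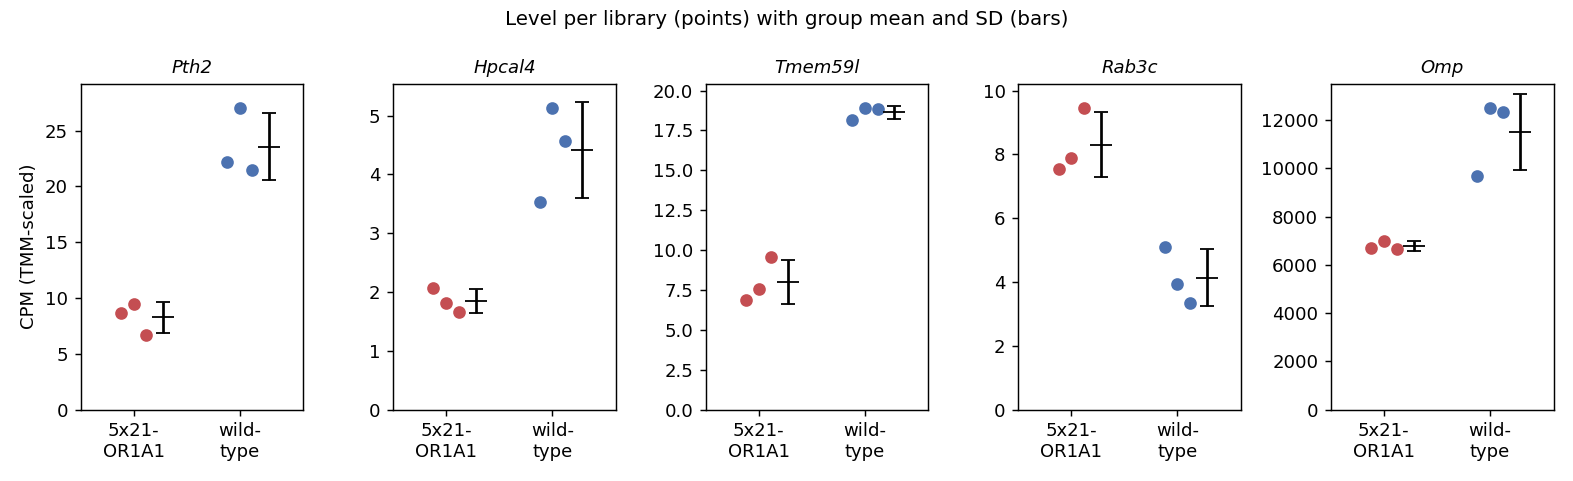
Level of Pth2, Hpcal4, Tmem59l, Rab3c and Omp in CPM in each library (points, 3 per genotype), with the group mean and SD beside them (bars); each panel has its own axis from 0. The 5x21-OR1A1 points lie below all wild-type points for Pth2, Hpcal4, Tmem59l and Omp and above them for Rab3c.

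Set among other genes, the 3 that fell ranked 4th (Pth2), 5th (Hpcal4) and 6th (Tmem59l) in size among 158 genes lower in 5x21-OR1A1 tissue, and Rab3c ranked 9th among 70 higher genes. These ranks leave out odorant, trace amine and vomeronasal receptors and are taken over called genes that averaged 1 CPM or more and whose groups lay apart. The 4 were chosen for the size of their change, so their high ranks follow from that choice. At ranks 10 to 12 the falls were those of Pi16 (-1.05), Gm13589 (-1.05) and Panx2 (-1.04) on the log2 scale. The rises next to Rab3c were those of Insm1, a transcription factor of neuronal progenitors (0.97), Brinp1 (0.97) and Cntn2, an axonal adhesion protein (0.97). The changes next in rank to Rab3c were close to it in size. Over all 19267 tested genes the median log2 fold change was 0.02.

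Omp, the mature neuron marker taken as a reference, was itself lower. It had 6700, 7005 and 6655 CPM in the 5x21-OR1A1 libraries, against 9695, 12517 and 12341 CPM in the wild-type libraries, so its groups did not overlap either. Its log2 fold change was -0.76 (SE 0.14; edgeR adjusted p = 0.0305). Of the 6 fits that left out 1 library, the call held only in the one without wild-type library 1 (edgeR adjusted p = 0.0182). The adjusted p was 0.151, 0.140 and 0.148 when 5x21-OR1A1 library 1, 2 or 3 was dropped, and 0.0534 and 0.0563 when wild-type library 2 or 3 was. Xist, the transcript of the inactive X chromosome, had 3640 and 2969 counts in 2 of the 3 5x21-OR1A1 libraries and 4816 counts in 1 of the 3 wild-type libraries, and at most 4 counts in the others. With its detection at the higher level as a covariate the adjusted p of Omp was 0.0942, and the part of sex in these results was not tested further.

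Counted per 10000 Omp counts of the same library, the 4 genes kept the direction of their CPM values. Pth2 had 12.9, 13.5 and 10.1 counts per 10000 Omp counts in the 5x21-OR1A1 libraries, against 22.9, 21.6 and 17.4 in the wild-type libraries. Hpcal4 had 3.09, 2.60 and 2.49, against 3.64, 4.10 and 3.7 in wild-type libraries. Tmem59l had 10.3, 10.8 and 14.3, against 18.7, 15.1 and 15.2 in wild-type libraries. For Hpcal4 and Tmem59l the groups came close to each other, and 5x21-OR1A1 library 3 stood just under the lowest wild-type library for Tmem59l. Rab3c had 11.3, 11.3 and 14.2 counts per 10000 Omp counts in the 5x21-OR1A1 libraries and 5.27, 3.14 and 2.72 in the wild-type libraries, the widest separation of the 4.

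On the log2 scale these ratios to Omp differed between the genotypes by -0.76 (SE 0.18) for Pth2, -0.49 (SE 0.11) for Hpcal4, -0.48 (SE 0.18) for Tmem59l and 1.78 (SE 0.31) for Rab3c. The fall of Omp was thus as large as what was left for Pth2, and larger than what was left for Hpcal4 and Tmem59l. For Rab3c the fall of Omp adds to the ratio. In CPM its log2 fold change was 1.004, the smallest of the 4 in size. The ratio does not depend on how libraries are scaled, but it does on the marker. The median log2 count of the mature markers in each library was also put in place of Omp. That median is set by the markers of middle level and does not weigh all markers alike. With it the differences were -1.17, -0.89, -0.88 and 1.37 in the same order of genes.

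**Figure D2:**
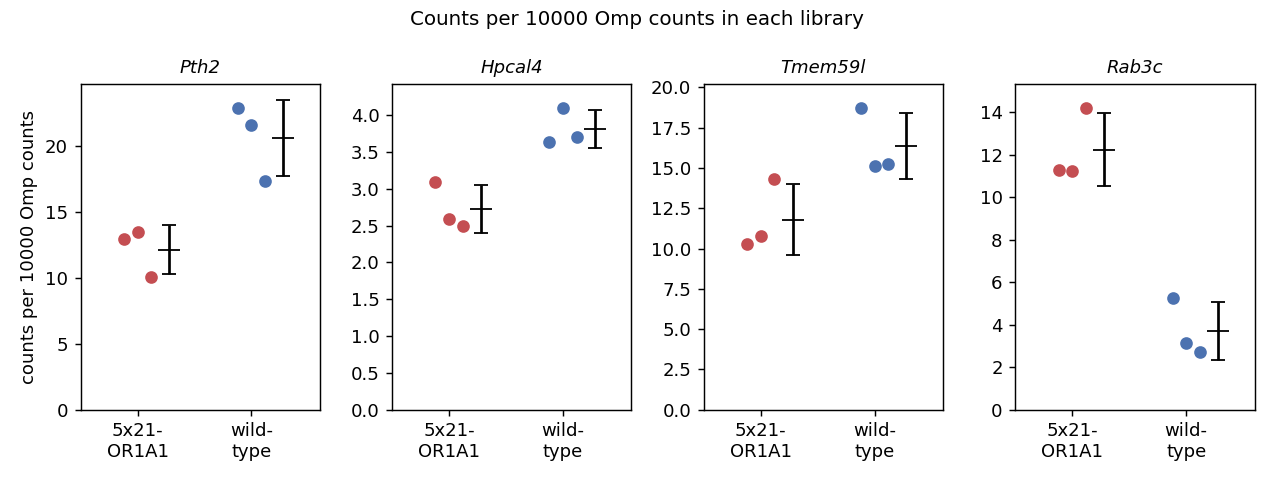
Counts of Pth2, Hpcal4, Tmem59l and Rab3c per 10000 Omp counts in each library (points), with the group mean and SD (bars); each panel has its own axis from 0. The groups stay apart for all 4 genes, by little for Hpcal4 and Tmem59l.

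Neuronal stage markers moved in the same libraries. Of 18 mature neuron markers tested 5 fell and 0 rose, with a median log2 fold change of -0.59, and their summed level ran from 15722 to 17208 CPM in 5x21-OR1A1 libraries and from 22297 to 29061 CPM in wild-type libraries. Those that fell were Omp, Gng13, a G protein subunit of the olfactory pathway (-0.81), Gfy, a Golgi protein of olfactory neurons (-0.76), Umodl1 (-0.71) and Cnga4, a subunit of the olfactory ion channel (-0.68). Of 16 immature neuron markers 4 rose and 1 fell, with a median of 0.28. Gap43, a growth cone protein, rose by 0.78 (SE 0.10; edgeR adjusted p = 0.00845), and the tubulin-binding gene Stmn4 fell by 0.70. Of 15 progenitor markers tested 6 rose and 0 fell, with a median of 0.54, among them Insm1 (0.97) and the neurogenic transcription factor gene Neurod1 (0.84). Summed progenitor markers ran from 626 to 714 CPM in 5x21-OR1A1 and from 500.4 to 573 CPM in wild-type libraries. Pth2, Hpcal4 and Tmem59l therefore moved the way of the mature list. Rab3c moved the way of the progenitor list and of most of the immature list. The part of these stages in their values was not tested. With 1 library left out, the calls numbered between 0 and 9 for the mature list, and between 1 and 4 for the immature and for the progenitor list. The mature list had 0 calls with Xist detection as a covariate.

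No marker passed among 11 tested for supporting cells (median log2 fold change -0.17), 9 for horizontal basal cells (0.06), 10 for ensheathing glia (-0.01), 10 for microvillous cells (0.16), 14 for glands (0.20), 4 for guanylyl cyclase D neurons (0.19) and 4 for peripheral ganglia (0.11). The gland list held wide spreads within a group. The secreted protein gene Bpifb9b had 8805, 144 and 1421 CPM in 5x21-OR1A1 libraries and 6.86, 109.6 and 292 CPM in wild-type libraries, with 5x21-OR1A1 library 1 far above the rest and the groups overlapping (log2 fold change 4.67, SE 1.62; edgeR adjusted p = 0.197). Bpifb9a had the same order of libraries, at 3092, 53.2 and 481 CPM in 5x21-OR1A1 and 3.14, 41.3 and 118 CPM in wild-type libraries. In the olfactory bulb and brain list 2 of 13 tested fell, the glutamate transporter gene Slc1a2 (-0.84) and the transcription factor gene Eomes (-0.90), with a list median of -0.14. That list summed to between 201 and 218.5 CPM in 5x21-OR1A1 libraries and between 233 and 282 CPM in wild-type libraries. Slc1a2 was called without wild-type library 3 and without 5x21-OR1A1 library 2 (edgeR adjusted p = 0.0332 and 0.0402), and without the other libraries its adjusted p ran up to 0.136. Eomes was called only without wild-type library 1 (edgeR adjusted p = 0.0481), and its adjusted p ran up to 0.145.

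The close relatives of the 4 genes did not pass the test. For Pth2, the relative Pthlh, which encodes the parathyroid hormone-related protein, averaged 9.47 ± 2.55 CPM in 5x21-OR1A1 and 8.93 ± 1.26 CPM in wild-type libraries (SD, n = 3 each; log2 fold change 0.09; edgeR adjusted p = 0.873). Its receptor gene Pth2r had at most 3 counts in any library and the hormone gene Pth at most 1, too few to test. The list of parathyroid hormone and calcitonin family genes and receptors, Pth2 left out, had 7 tested genes with 0 calls and a median of 0.24. No other tested gene of this family passed beside Pth2, and the receptor could not be assessed at this depth.

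Other peptide genes were tested as a wider comparison for Pth2. Over all tested genes 2.71% were called, which is the background for the counts in this and the following lists. Of 30 neuropeptide genes 15 were tested, 1 fell and 0 rose, with a median of -0.28, and 12 had at most 10 counts in any library, among them Vip, Sst and Oxt. The gene that fell was Cartpt, which encodes the cocaine- and amphetamine-regulated peptide, at 203 ± 17.7 CPM in 5x21-OR1A1 and 314 ± 41.7 CPM in wild-type libraries (SD, n = 3 each; log2 fold change -0.63; edgeR adjusted p = 0.0345). Of 15 genes for peptide processing and dense core vesicles 1 fell, Chga, which encodes the granule protein chromogranin A (-0.81; edgeR adjusted p = 0.0187), and the list median was -0.06. The peptide-cleaving enzymes Pcsk1 (0.53) and Pcsk2 (0.36) did not pass. Leaving out 1 library moved the adjusted p of Cartpt to between 0.0355 and 0.166, with the call kept only without wild-type library 3. Chga kept its call without each wild-type library, and its adjusted p was 0.111, 0.0764 and 0.104 without 5x21-OR1A1 libraries 1, 2 and 3.

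For Hpcal4, 10 other neuronal calcium sensor genes were tested, with 0 calls and a median of 0.14. Hpcal1 averaged 48.9 ± 2.23 CPM in 5x21-OR1A1 and 42.5 ± 3.01 CPM in wild-type libraries (SD, n = 3 each; log2 fold change 0.20; edgeR adjusted p = 0.257). Ncald, which encodes neurocalcin, had a log2 fold change of 0.34, Vsnl1, for visinin-like protein, of -0.12, and Ncs1 of -0.03, with edgeR adjusted p of 0.107, 0.681 and 0.916. Hpca, for hippocalcin, had between 5 and 20 counts per library. Per kilobase of exon, Hpcal4 lay below Hpcal1, Vsnl1, Ncald and Ncs1 and above Hpca, at 0.346 CPM per kb in 5x21-OR1A1 and 0.826 in wild-type tissue. Hpcal1 stood at 28.8 and 25.1 and Vsnl1 at 19.98 and 21.8 CPM per kb in 5x21-OR1A1 and wild-type tissue, while Hpca was lower still at 0.138 and 0.127. Among 14 other calcium sensors and buffers with EF hands 1 fell, S100a5, a gene of mature olfactory neurons whose level follows odor activity (-0.81; edgeR adjusted p = 0.0399), and the median of the list was -0.22. That call was kept only without wild-type library 1 (edgeR adjusted p = 0.0188), and its adjusted p ran up to 0.177 without the other libraries.

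For Tmem59l, the widely expressed relative Tmem59 averaged 383 ± 16.9 CPM in 5x21-OR1A1 and 406 ± 30.03 CPM in wild-type libraries (SD, n = 3 each; log2 fold change -0.08; edgeR adjusted p = 0.714). Human TMEM59 binds ATG16L1, a protein of the autophagy machinery. None of the 5 tested genes of this group passed, and Atg5 (0.06), Atg12 (0.02) and Atg16l1 (-0.03) lay near 0 on the log2 scale. TMEM59 proteins have also been tied to the trafficking of the amyloid precursor protein. None of 15 amyloid precursor family and secretase genes passed, with a median of 0.02 and App itself at 0.02, while Apba2 (-0.65; edgeR adjusted p = 0.103) and Psen2 (-0.37; 0.125) had the lowest p-values. Tmem59l stood at 4.81 CPM per kb in 5x21-OR1A1 and 11.2 in wild-type tissue, against 186 and 197 for Tmem59.

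For Rab3c, the other members of its group did not pass either. Rab3d averaged 147 ± 5.83 CPM in 5x21-OR1A1 and 134 ± 6.32 CPM in wild-type libraries, and Rab3b 42.8 ± 2.62 and 49.7 ± 9.05 CPM (SD, n = 3 each). Their log2 fold changes were 0.12 and -0.21 (edgeR adjusted p = 0.441 and 0.451), and that of Rab3a, which is abundant in brain, was -0.37 (0.581) from 12 to 30 counts per library. Per kilobase the group ran from Rab3d, at 34.9 CPM per kb in 5x21-OR1A1 and 32.0 in wild-type tissue, through Rab3b (12.2 and 14.1) and Rab3c (0.689 and 0.343) to Rab3a (0.237 and 0.307). Rab3c was thus a minor transcript of its group in both genotypes. Of 21 tested Rab3 and Rab27 genes and regulators, Rab3c left out, 1 fell and 0 rose, with a median of -0.02. The gene that fell was Rims3, which encodes a protein of the presynaptic active zone (-0.55; edgeR adjusted p = 0.0249), and it kept its call only without wild-type library 3 (0.0147), with an adjusted p of up to 0.134 without the other libraries. Of 28 synaptic vesicle release genes 1 fell, Syn2, for synapsin (-0.49; edgeR adjusted p = 0.0333), with a median of -0.06. Syn2 kept its call when wild-type library 1 or 3 was left out (edgeR adjusted p = 0.0465 and 0.04997), and its adjusted p ran up to 0.166. Syp (-0.43), Vamp2 (-0.27) and Snap25 (-0.28) did not pass.

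**Figure D3:**
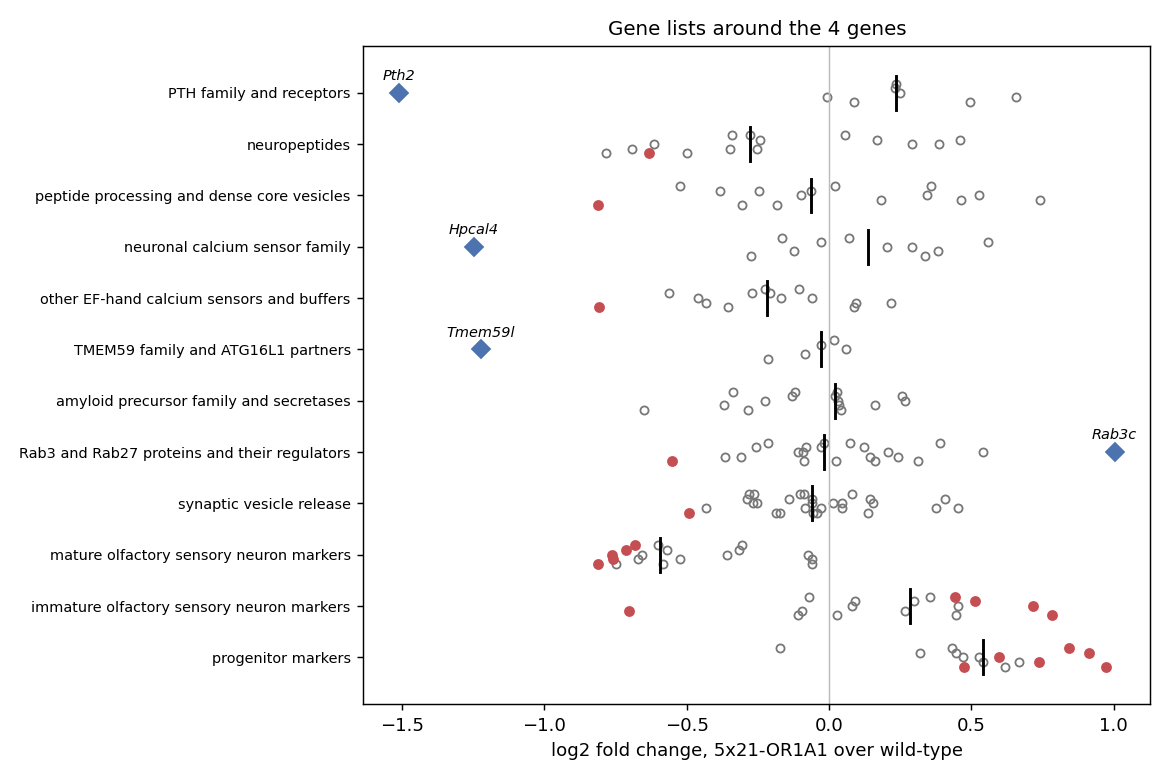
Log2 fold change, 5x21-OR1A1 over wild-type, of each tested gene (circles) in the lists built around the 4 genes and in 3 neuronal stage lists; filled circles were called by edgeR, vertical bars are list medians and diamonds mark Pth2, Hpcal4, Tmem59l and Rab3c beside their own lists. Each diamond lies outside the range of the genes in its own lists, as a description, since the 4 were chosen for the size of their change.

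The order of levels was read per kilobase of merged exons, since CPM grows with transcript length. In 5x21-OR1A1 tissue Pth2 was highest at 12.4 ± 2.11 CPM per kb, then Tmem59l at 4.81 ± 0.828, Rab3c at 0.689 ± 0.0848 and Hpcal4 at 0.346 ± 0.0391. In wild-type tissue Pth2 was at 35.3 ± 4.54 CPM per kb, Tmem59l at 11.2 ± 0.247, Hpcal4 at 0.826 ± 0.153 and Rab3c at 0.343 ± 0.0744 (SD, n = 3 each). Hpcal4 and Rab3c thus changed places between the genotypes, which rests on the same changes for which they were chosen. Neighbours in the order did not overlap within either genotype, and the same order was found with the longest transcript in place of merged exons. Omp stood far above all 4, at 3165 ± 88.8 CPM per kb in 5x21-OR1A1 and 5372 ± 738 in wild-type tissue.

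Location on the chromosome played no part in how the genes were chosen, so their neighbours were tested. The 24 genes compared were the 3 next tested genes on each side of each member, in the order of their first coordinate on the chromosome. Of these 1 fell and 1 rose, with a median log2 fold change of 0.04, where 2.71% of all tested genes were called. The gene that fell was Gfy, the mature neuron gene next to Pth2, at 1731 ± 176 CPM in 5x21-OR1A1 and 2928 ± 352 CPM in wild-type libraries (SD, n = 3 each; edgeR adjusted p = 0.0303), a log2 fold change of -0.76 with an SE of 0.14. Gfy lies at 45176349 to 45179569 on the minus strand, so that Gfy and Pth2 point away from each other with 1426 bases between their annotated starts. Pth2 differed more than Gfy. Per Gfy count, the log2 level of Pth2 was -7.48, -7.65 and -8.03 in 5x21-OR1A1 libraries and -7.00, -6.94 and -6.94 in wild-type libraries. Gfy kept its call when wild-type library 1 or 3 was left out (edgeR adjusted p = 0.0482 and 0.0328), and its adjusted p was up to 0.148 without the others.

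On the other side of Pth2, 1785 bases beyond its end, Ccdc155 averaged 1.11 ± 0.253 CPM in 5x21-OR1A1 and 2.16 ± 0.444 CPM in wild-type libraries, and did not pass (SD, n = 3 each; edgeR adjusted p = 0.114), at a log2 fold change of -0.96 with an SE of 0.26. Slc17a7 (0.45), Dkkl1 (0.54) and Tead2 (0.43) lay above 0 and Pih1d1 (-0.11) below it, all without passing. The neighbour that rose was Mycl, a transcription factor of the Myc family, 180741 bases before Hpcal4. It averaged 48.4 ± 3.39 CPM in 5x21-OR1A1 and 28.1 ± 3.05 CPM in wild-type libraries (SD, n = 3 each; edgeR adjusted p = 0.00798), a log2 fold change of 0.78 with an SE of 0.10, and it kept its call without each library in turn. The genes nearest to Hpcal4, Ppie (-0.15) and Heyl (-0.17), did not pass. Neither did the 6 around Tmem59l, among them Rex1bd (-0.32) and Crtc1 (0.11), or the 6 around Rab3c, from -0.37 (Gm5455) to 0.61 (Pde4d, edgeR adjusted p = 0.0546). Around Rab3c the order is not that of distance. Pde4d ends 100725 bases from it, while Rps3a3 and Gm27572, placed between them, lie within the span of Pde4d at 1382789 and 1555548 bases. Gm15285, on the other side, lies 1080206 bases away.

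**Figure D4:**
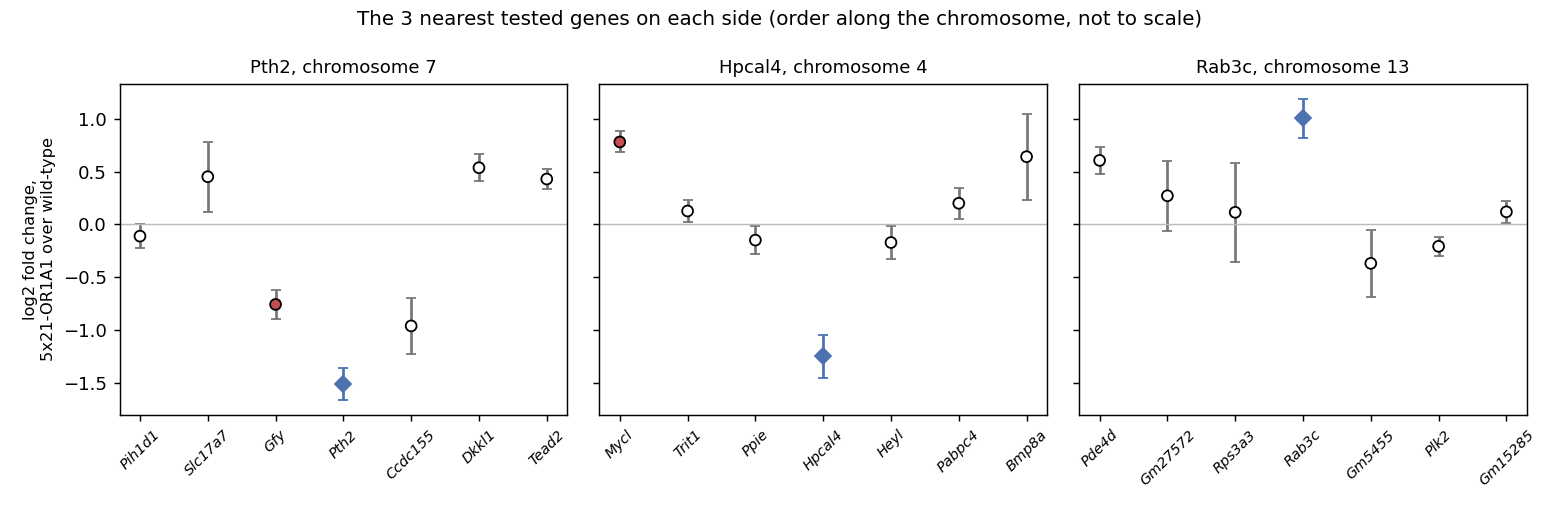
Log2 fold change with its SE, 5x21-OR1A1 over wild-type, of Pth2, Hpcal4 and Rab3c (diamonds) and of the 3 next tested genes on each side (circles, filled where called by edgeR). Genes stand in the order of their first coordinate on the chromosome, which for Rab3c is not the order of distance. Gfy beside Pth2 fell and Mycl near Hpcal4 rose, and the other neighbours drawn did not pass.

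The promoter windows of RefSeq, 250 bases before to 50 after a start on GRCm38.p6, were compared with all 32841 such windows. The GC content was 52.3% for Pth2, 61.7% for Hpcal4, 63.0% for Tmem59l and 50.7% for Rab3c, against a median of 52.7%. Hpcal4 and Tmem59l held 22 and 20 CpG, Rab3c 11 and Pth2 3, against a median of 7, so the windows of the 3 genes that fell did not share a composition. For Hpcal4 and Rab3c the GENCODE annotation begins 277 and 790 bases before the RefSeq start, and their windows are not printed. All 300 bases of the Hpcal4 window lie in GENCODE exons, so by that annotation its composition and motif search do not describe sequence upstream of the gene. Motifs were searched on both strands and were picked after the sequences had been seen. TCCC and GGGA with any 2 bases between them, the site of the Ebf factors of olfactory neurons, was in none of the 4 windows and in 0.904% of all windows. TAATTA, a homeodomain site, was in none of the 4 and in 5.29% of all, and TGACGTCA was in that of Tmem59l alone of the 4 and in 1.79% of all. That was the only match in the 4 windows, so no matches overlapped. The window of Gfy, across from Pth2, did hold a match to the Ebf site, beginning 42 bases before its RefSeq start, shown with 10 bases on each side and the match in capitals (GRCm38.p6, chr7:45179620-45179649, minus strand).
Gfy upstream: ctctcaggatTCCCCAGGGAgggggtcagg
A match of letters is a description and no evidence that a factor binds there.

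Genes with the most similar pattern were ranked by the root mean square difference between log2 CPM values, each centred on its own mean over the 6 libraries, among 16762 genes with a mean of at least 1 CPM. For Pth2 the nearest were the trace amine receptor Taar2 (0.0972) and the odorant receptors Olfr566 (0.102) and Olfr1044 (0.117). For Hpcal4 they were Olfr69 (0.0743), Olfr763 (0.101) and Olfr821 (0.108), and for Tmem59l Olfr435 (0.0819), Olfr972 (0.135) and Olfr1101 (0.145). For Rab3c they were Fibin (0.127), Atp8b4 (0.137) and Hells, a DNA helicase of dividing cells (0.150). Omp was 311th nearest to Pth2, 68th to Hpcal4 and 124th to Tmem59l. The members that fell differed from each other by 0.238 to 0.319 in this measure. The nearest genes were picked as the closest of 16762, so their smaller differences follow from that choice and cannot be set against these.

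Among the 20 genes nearest to each member, a number picked after the nearest had been seen, odorant and trace amine receptors made up 20 for Pth2, 16 for Hpcal4, 15 for Tmem59l and 0 for Rab3c. They made up 4.49% of the genes compared. High shares for the 3 falling genes were also found with no regard to pattern: of genes whose log2 fold change lay within 0.2 of the member's, receptors made up 94.0% of 117 for Pth2, 85.9% of 142 for Hpcal4, 83.8% of 148 for Tmem59l and 19.4% of 139 for Rab3c. Receptors dominated the range of fold changes in which the 3 falling genes lay. All genes share the same 6 libraries, so the ranking is a description.

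**Figure D5:**
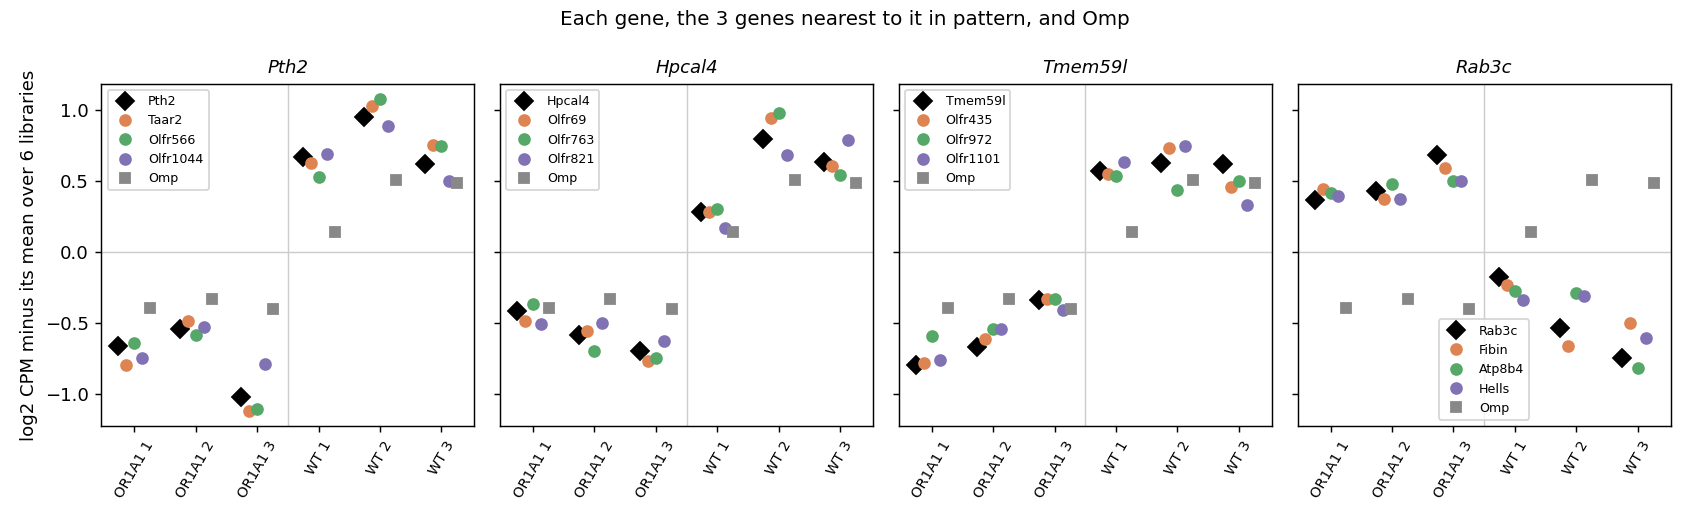
Log2 CPM of each member (black diamonds), its 3 nearest genes (coloured circles) and Omp (grey squares) in the 3 5x21-OR1A1 (OR1A1) and 3 wild-type (WT) libraries, each centred on its mean over the 6. The coloured genes were picked for lying closest to the member, so their closeness follows from that choice. Omp moves the same way as Pth2, Hpcal4 and Tmem59l over a smaller range, and opposite to Rab3c.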

How the data were processed

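The authors deposited raw read counts for each gene symbol, and these were used for 3 5x21-OR1A1 and 3 wild-type libraries. Per the labels' protocols the libraries were nonstranded poly-A TruSeq libraries with single-end reads of 100 bp. Per the submitters' processing notes, TopHat2 2.1.1 and HTSeq 0.9.1 were used with GRCm38.p5. Which annotation and counting options were used is not given in the sources used here. Overlapping genes on opposite strands cannot be told apart in such libraries; Omp lies within the span of Capn5 on the same strand and shares 0 exon bases with it. Coordinates and exon lengths are from GENCODE M21 (GRCm38).

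The counts were scaled by TMM, filtered by group at edgeR's default (minimum count 10, total 15) and fitted in edgeR 4.0.16 (R 4.3.3) with genotype as the term. Quasi-likelihood p-values were adjusted after Benjamini and Hochberg over the 19267 genes kept. The SE of a log2 fold change is its size over the square root of F. The fit was tested on simulated data. No 2 libraries of a group were alike within counting noise.

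The 4 genes, the 20 gene lists and the tests were chosen with earlier results of these data known. Named genes are the 4 members and Omp, relatives, up to 4 genes of lowest adjusted p per list, the 3 nearest tested neighbours on each side, the 3 most alike in pattern, for which 0.25 CPM was added before the log, and ranks 9 to 12 of the non-receptor changes. Some genes that meet these rules are not reported here. A few others are named as examples of genes that did not pass or of markers with few counts. Alternatives were other scalings and filters, DESeq2 1.42.0, limma-voom (limma 3.58.1), the replicate block, Xist detection and leaving out each library.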

Additional observations from a re-analysis of the deposited data

How the results depend on the processing

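The log2 fold changes of Pth2, Hpcal4, Tmem59l and Rab3c kept their direction under every alternative run. Leaving out 1 library gave -1.61 to -1.38 for Pth2, -1.39 to -1.12 for Hpcal4, -1.37 to -1.13 for Tmem59l, 0.88 to 1.18 for Rab3c and -0.88 to -0.69 for Omp. For the ratios to Omp it gave -0.88 to -0.63, -0.58 to -0.43, -0.63 to -0.38 and 1.58 to 2.06 in the same order of members. With the median of the mature markers in place of Omp those ratios were -1.17, -0.89, -0.88 and 1.37. Scaling to the summed mature markers sets these markers equal between libraries and put the median log2 fold change of all genes at 0.66, against 0.02. It gave -0.86 for Pth2, -0.58 for Hpcal4, -0.57 for Tmem59l, 1.64 for Rab3c and -0.10 for Omp, and 14360 calls over all genes, against 523. It also gave 97 calls in the pathway and family lists, 13 in the immature, 15 in the progenitor and 51 in the other marker lists, and 18 among the neighbours. By that shift it turned to positive values Cartpt (0.024), Rims3 (0.10), Syn2 (0.16), Vsnl1 (0.55), Ncs1 (0.63), Tmem59 (0.57), Rab3a (0.30), Rab3b (0.45), Pih1d1 (0.54), Ppie (0.49), Heyl (0.49), Comp (0.59), Klhl26 (0.56), Rex1bd (0.32), Gm5455 (0.30) and Plk2 (0.44). DESeq2 gave 1212 calls over all genes, 15 in the pathway lists, 13 mature, 12 progenitor and 8 other markers and 6 neighbours, and testing without a filter gave 9 mature markers; the cause was not tested. With Xist detection as a covariate the counts were 289 over all genes, 1 in the pathway lists, 0 mature, 3 immature and 3 progenitor markers and 1 neighbour, with Omp at -0.70 and not called. Values near 0 changed sign for Hpca (-0.048 with limma-voom, -0.016 with the replicate block, -0.085 with Xist detection), Comp (0.0091 with limma-voom) and Ncs1 (0.033 with Xist detection). They also did so when 1 library was left out, over ranges of -0.16 to 0.20 for Pthlh, -0.64 to 0.43 for Hpca, -0.23 to 0.040 for Vsnl1, -0.097 to 0.031 for Ncs1, -0.23 to 0.13 for Comp, -0.030 to 0.19 for Crtc1, -0.14 to 0.026 for Klhl26 and -0.31 to 0.67 for Rps3a3. Leaving out 1 library gave 150 to 626 calls over all genes, 0 to 7 in the pathway lists, 0 to 9 mature, 1 to 4 immature, 1 to 4 progenitor and 0 to 1 other markers, and 1 to 2 neighbours.

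Replicate numbers shared between the genotypes gave no clear sign of pairing. Deviations of same-numbered libraries from their group means correlated at -0.396, 0.123 and -0.056 over 16766 genes, and not every library correlated best with its own number. With 3 libraries per group these deviations depend on each other, so the values cannot settle whether the libraries were paired. With the replicate block 377 genes were called, with 2 in the pathway lists, 3 progenitor and 1 other marker, and Omp, at -0.75, was not called (edgeR adjusted p = 0.0627). Depth limits Hpcal4 most, with 45 to 187 counts per library, and the 3 libraries of each group limit every SE.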
